A study of Gallus gallus with 24 samples.

Results

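The genes of the chicken Z chromosome were compared between female and male birds in jejunum, a segment of the small intestine between duodenum and ileum. The members were all genes that the deposited table places on chromosome Z and that reached 0.5 TPM (a relative transcript abundance corrected for length and scaled to a common total) in at least 6 of the 24 libraries. Of the 752 Z genes listed, 600 passed and 152 did not, and 498 of the 600 carry a symbol. At the edge of the filter, 4 members with means of 0.284 to 0.445 TPM passed in exactly 6 libraries, and 12 Z genes with means of 0.188 to 0.473 TPM fell 1 library short. Every member reached 0.5 TPM in at least 1 library of each sex, but 9 did so in fewer than 3 libraries of 1 sex. Among these 9, RLN3, RAB3C and SPEF2 reached it in at least 6 females and in 2 males. CHRNA6, KIF24 and ENSGALG00000032066 reached it in at least 6 males and in 1 or 2 females. These genes would have failed the filter without that sex, so their difference by sex is not independent of the filter. The members stand among 13279 genes that passed the same filter, 12616 of them autosomal.

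In birds the female is the heterogametic sex, with a single Z and a W, while the male carries a pair of Z chromosomes. Birds are known for lacking a chromosome-wide mechanism that equalises Z expression between the sexes, so that many Z genes are more abundant in males and others are close to parity. The Z also carries DMRT1, whose dose is required for testis development, and beside it a locus known as MHM (male hypermethylated), which is transcribed as long noncoding RNA in females.

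The study sequenced RNA from the jejunum of HAS and LAS chickens, lines that were bred to make many or few antibodies against the red cells of sheep (SRBC). HASI and LASI birds were injected with SRBC, HASN and LASN birds were not, and all labels, also those of birds not injected, state a time of 5 days post injection. There are 6 birds per group and 1 library per bird. The labels give no allele, sex, batch or age, and all birds belong to these selected lines. The labels name separate birds only by replicate number, so p-values measure the spread between these samples.

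Sex was read from the W chromosome. A bird was called female where the mean of log2(TPM + 1) over 30 W genes with a mean of at least 1 TPM was above 2. This mean was 3.32 to 4.29 in 13 birds and 0.162 to 0.329 in the other 11, so no bird lay near the threshold. The birds nearest to it were the male LASI replicate 4, at 0.329, and the female HASI replicate 1, at 3.32. HASN, LASN and LASI hold 3 females and 3 males each, and HASI holds 4 females and 2 males. Thresholds of 1 and 3, and the 14 W genes with a mean of at least 5 TPM, gave the same sexes. W genes were used to call the sex, so their own difference is not a result.

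The libraries had the markers of small intestine. VIL1, a structural protein of microvilli, was 818 to 1398 TPM and CDX1, an intestinal transcription factor, was 128 to 238 TPM. The pancreas markers CPA1 and CELA2A did not exceed 0.378 TPM. Of the liver markers, ALB was at most 1.14 TPM and APOH at most 0.187 TPM, while FGB was 2.56 to 22 TPM. Of the gonad markers, DAZL was at most 0.199 TPM, DDX4, itself a Z gene, at most 1.92 TPM, and AMH 0.600 to 1.72 TPM. ACTG2, an actin of smooth muscle, ranged from 104 to 3348 TPM, with a mean of 854 in females and 1082 in males. The part of gut muscle in the results was not tested. Fewer cells of a type and less RNA per cell cannot be told apart in bulk tissue.

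Z genes were less abundant in females in every group. In each bird the median TPM of the 600 Z genes was divided by that of the autosomal genes, which gave 0.551 to 0.712 in females (mean 0.643 ± 0.0502, SD, n = 13). In males the ratio was 0.726 to 1.04 (mean 0.875 ± 0.0999, SD, n = 11). All males were above all females. The share of nuclear TPM that came from Z genes was 2.95% to 3.66% in females and 4.09% to 5.05% in males, again with no overlap.

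**Figure D1:**
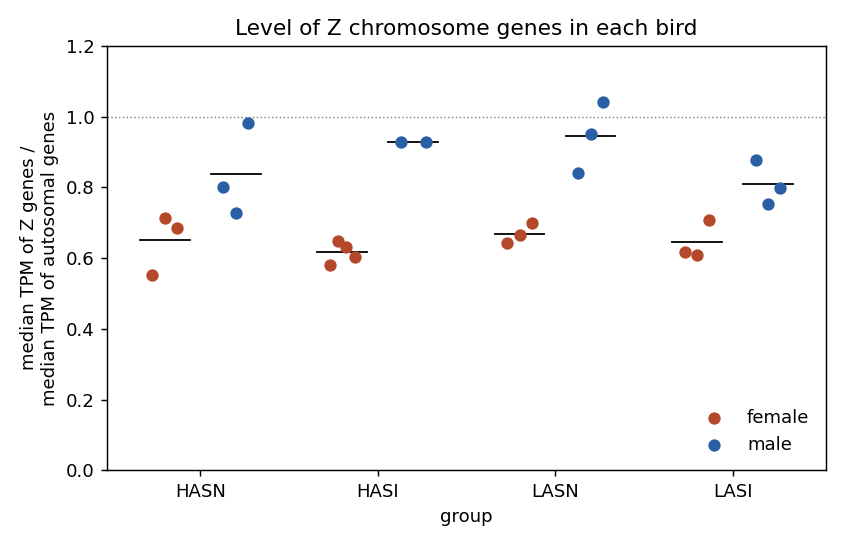
Each point is 1 bird, by group on the x axis and by sex in colour, and the y axis is the median TPM of Z genes divided by the median TPM of autosomal genes (no unit), with black lines at group means. Females lie between 0.551 and 0.712 and males between 0.726 and 1.04.

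Within each sex this ratio moved with a measure of the library. The span slope is how steeply log2(TPM + 1) of autosomal genes changes with the log2 length of the gene on the genome, and a negative value means that long genes are less abundant. The lowest female was HASN replicate 3, with a Z ratio of 0.551 and a slope of -0.230, and the highest was HASN replicate 5, with 0.712 and -0.0142. Among males the lowest was HASN replicate 2, with 0.726 and -0.270, and the highest was LASN replicate 6, with 1.04 and 0.0257. The mean slope was -0.108 ± 0.0933 in females (SD, n = 13) and -0.132 ± 0.0966 in males (SD, n = 11). With this slope in the model, 280 Z genes were called by sex in the test described below, against 116 without it, and all 116 were among them. The share of all genes called under that model is not given here, so the gain is not shown to be particular to the Z.

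The male to female ratio of a Z gene was typically between parity and doubling. It was computed as the mean TPM in males over that in females with the 4 groups weighted equally. The median over the 600 genes was 1.25, with quartiles of 1.06 and 1.49 and a range of 0.119 to 2.82. Over autosomal genes the median was 0.932, and the 32 autosomes with at least 50 genes had medians of 0.904 to 1.05. Relative to the autosomal median the Z median was 1.34. A ratio below 1 was found for 120 Z genes (20%) and a ratio of at least 1.8 for 38 (6.33%), against 72.2% and 0.325% of autosomal genes. After division by the autosomal median, 84 Z genes (14%) were below 1 and 70 (11.7%) were at 1.8 or more.

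**Figure D2:**
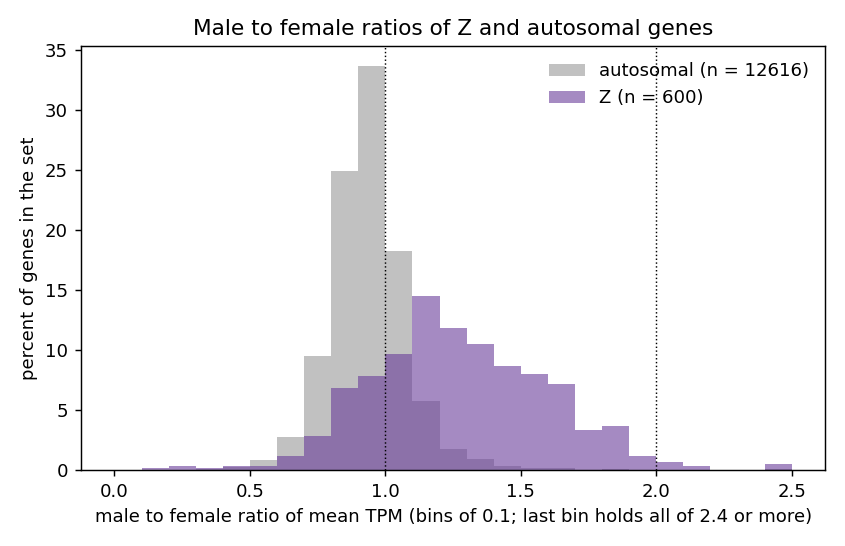
Histogram of the male to female ratio of mean TPM, in bins of 0.1 on the x axis, as the percent of genes in each set on the y axis, with dotted lines at ratios of 1 and 2. The 600 Z genes have a median of 1.25 and quartiles of 1.06 and 1.49, with 20% below 1. The 12616 autosomal genes have a median of 0.932.

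The male to female ratio was higher for Z genes than for autosomal genes in each group. HASN birds had a median Z ratio of 1.11 and an autosomal one of 0.842, so that the Z was above the autosomes by a factor of 1.32. In HASI the Z median was 1.72, the autosomal 1.15 and the factor 1.50. In LASN they were 1.24, 0.914 and 1.36, and in LASI 1.15, 0.867 and 1.33. HASI, the group with 2 males, was highest on both sets.

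Ratios were highest in short genes. Sorted by mean TPM into 3 sets of 200 genes, Z genes had a median ratio of 1.19, 1.26 and 1.33 from the least to the most abundant set. Autosomal genes cut at the same values had 0.901, 0.908 and 0.957, and relative to them the Z medians were 1.32, 1.39 and 1.39. By genomic span the medians were 1.40 in the shortest 200 genes, 1.26 in the middle and 1.15 in the longest. Autosomal genes cut at the same spans also fell, from 0.976 through 0.908 to 0.877. Relative to them the Z medians were 1.43, 1.39 and 1.31.

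Single genes were tested with limma on log2(TPM + 1), with 1 mean per group and a term for sex, two-sided, with Benjamini-Hochberg adjustment over all 13279 genes. Calls were made at an adjusted p under 0.05, and differences are male minus female on the log2(TPM + 1) scale, which understates changes of genes with low TPM. Of the 600 Z genes 113 were higher in males (18.8%), where the same rule called 0.851% of all genes. All genes called higher in males lie on the Z: among autosomal genes limma called 0 higher in males and 12 lower (0.0951%), with 270 at an unadjusted p under 0.05 in either direction. Lower in males were 3 Z genes (0.5% of Z genes, against 0.0951% of autosomal genes and 0.399% of all genes). The share over all genes includes 38 genes of the W, the chromosome from which the sex was called.

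The calls leaned to abundant and short genes. In the sets by mean TPM, 5, 38 and 70 of 200 genes were higher in males from low to high. In the sets by span there were 64 of 200 in the shortest, 31 in the middle and 18 in the longest. A count of calls follows the precision of a gene as well as its ratio, so these counts do not rank the ratios.

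Intervals were used to place Z genes against parity and doubling on the scale of the deposited TPM. Among the 321 Z genes with a mean of at least 10 TPM, the 95% interval of the log2 difference lay wholly between 0 and 1 for 118. For 41 it held 1, the value of a doubling, and not 0. For 138 it held 0 and not 1, for 20 it held both, for 4 it lay below 0, and for 0 it lay above 1. Of 7635 autosomal genes of that abundance, 29 lay wholly between 0 and 1 (0.380%) and 3 held 1 and not 0. These intervals are not adjusted for the number of genes.

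Some genes separated the sexes completely. In 31 Z genes every male was above every female (5.17% of Z genes, against 0.233% of all genes and 0 autosomal genes). When the birds were compared within their own group, 45 Z genes had all males above all females in each of the 4 groups (7.5%), and 0 autosomal genes did.

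XPA, a damage recognition factor of nucleotide excision repair, was the most sharply separated of the genes named. It had 122, 135 and 149 TPM (lowest, median and highest) in females and 244, 269 and 294 TPM in males. The sexes did not overlap, and the highest female was far below the lowest male. The ratio of means was 2.0 and the log2 difference 0.99 ± 0.053 (SE; limma adjusted p = 3.13e-12). The gene lies at 70935594 to 70942308 on chromosome Z in galGal6.

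RPS6, a protein of the small ribosomal subunit and among the most abundant Z transcripts, had 978, 1328 and 1525 TPM in females and 2120, 2448 and 2899 TPM in males. The ratio was 1.84 and the log2 difference 0.88 ± 0.0791 (SE; limma adjusted p = 5.39e-08), with all males above all females. TXN, which encodes thioredoxin and was picked after its values were seen, had 492, 539 and 639 TPM in females and 850, 980 and 1092 TPM in males. Its ratio was 1.75 (limma adjusted p = 8.87e-09), also without overlap.

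DCTN3, a subunit of dynactin, had 28.9, 37.6 and 45.3 TPM in females and 56.7, 72.3 and 87.6 TPM in males, with a ratio of 1.93 (limma adjusted p = 6.55e-08). The unnamed gene ENSGALG00000015617 had 707, 844 and 1170.5 TPM in females and 1317, 1821 and 2432 TPM in males, a ratio of 1.97 (limma adjusted p = 8.96e-06). In both genes the sexes did not overlap.

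Other genes with the highest differences had larger spread. MRPL17, a protein of the mitochondrial ribosome, had 41.9, 58.1 and 91.9 TPM in females and 85.1, 113 and 180 TPM in males. Its log2 difference was 1.01 ± 0.135 (SE; limma adjusted p = 3.52e-05) with a slight overlap. CDKN2A, a tumour suppressor gene, had 2.01, 3.80 and 6.60 TPM in females and 4.34, 8.96 and 11.8 TPM in males, with a ratio of 2.14 (limma adjusted p = 0.000203). LURAP1L had a ratio of 1.91 and ENSGALG00000026300 of 1.89, and in each the highest female was above the lowest male. ATP5ME, a small subunit of ATP synthase, had a ratio of 1.94 and an adjusted p of 0.00678, which became 0.0922 after median-ratio rescaling of the libraries.

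**Figure D3:**
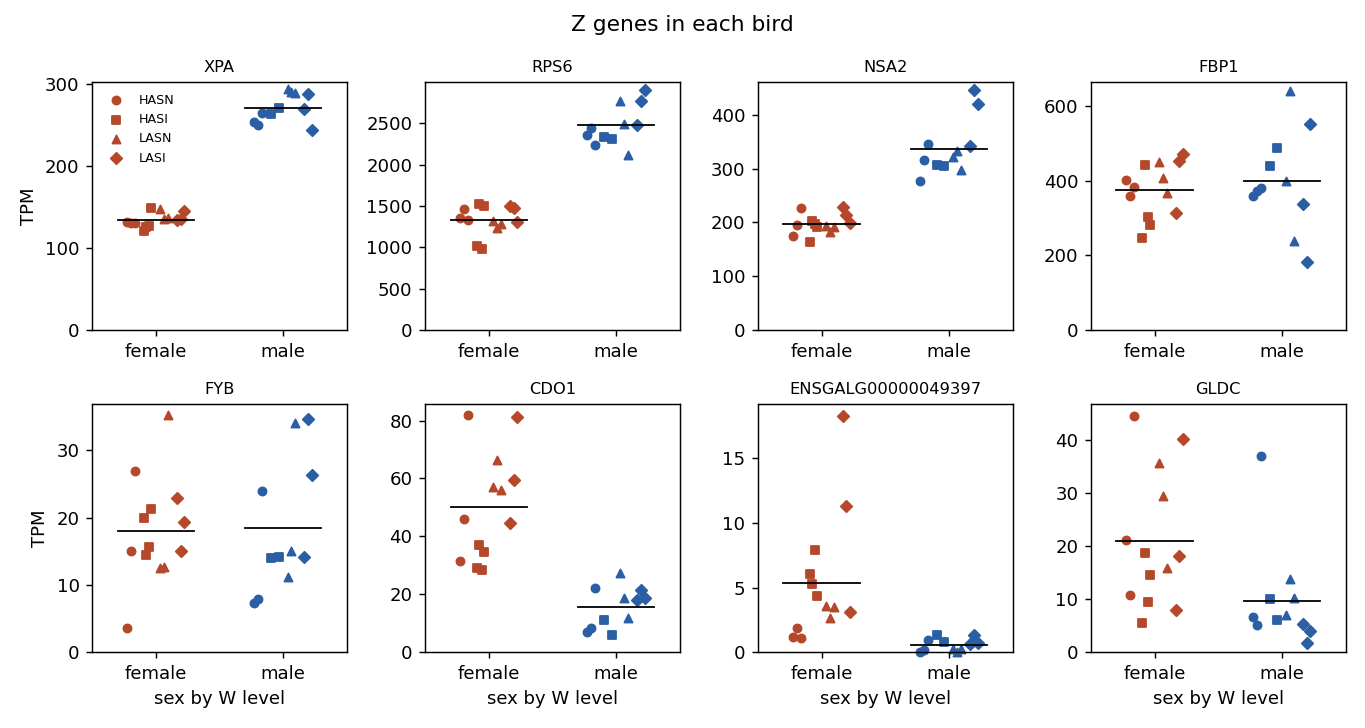
TPM of 8 Z genes in each bird (y axis, linear, from 0), by sex on the x axis, with 1 marker shape per group and black lines at the mean of each sex. XPA, RPS6 and NSA2 have all males above all females, FBP1, FYB and GLDC overlap, and CDO1 has all females above all males.

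Counts of called members of the gene lists stand beside the 18.8% of all Z genes that were higher in males. The lists were not matched to all Z genes for span or abundance. By span, that share was 32% in the shortest 200 genes and 9% in the longest. By mean TPM it was 2.5% in the lowest 200 genes and 35% in the highest. How far the differences between lists go with span or abundance was not tested. Of 10 nuclear-coded mitochondrial genes on the list, 7 were higher in males and 0 lower, with a median ratio of 1.61 beside 1.25 over all Z genes. COX7C, a subunit of cytochrome c oxidase, had 249, 392 and 567 TPM in females and 404, 775 and 1179 TPM in males, a ratio of 1.92 (limma adjusted p = 0.00102). The groups overlapped between 404 and 567 TPM. MRPL50, of the mitochondrial ribosome, had a ratio of 1.91, NDUFS4, a complex I subunit, 1.72, MRPS30 1.60 and NDUFAF2 1.43, and all 4 were called. The call for NDUFS4 was lost after rescaling (adjusted p = 0.0667). MRPS27 (ratio 1.35), MRPS36 (1.30) and NNT (0.827), the transhydrogenase of the inner membrane, were not called.

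Of 3 ribosomal proteins, RPS6 and RPL17 were higher in males and RPL37 was not called. RPL17 had 596, 821 and 1116 TPM in females and 986, 1413 and 2103 TPM in males, a ratio of 1.89 (limma adjusted p = 4.6e-05), and the sexes overlapped. RPL37 had 418, 530 and 709 TPM in females and 480, 671 and 990 TPM in males, a ratio of 1.34 (limma adjusted p = 0.149). RPL17 and RPL37 each overlap another annotated gene, and strand use in counting is not given, so their reads cannot be told apart from those of the neighbour.

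Of 12 cell cycle genes 5 were higher in males (18.8% over all Z genes) and 0 lower, with a median ratio of 1.40. CDKN2B, an inhibitor of cyclin-dependent kinases next to CDKN2A on the chromosome, had 201, 242 and 303 TPM in females and 265, 463 and 625 TPM in males, a ratio of 1.82 (limma adjusted p = 5.74e-07). CCNH, or cyclin H, had 18.7, 25.8 and 27.0 TPM in females and 35.2, 42.7 and 50.3 TPM in males, with no overlap and a ratio of 1.73 (limma adjusted p = 8.66e-07). Its kinase partner CDK7 had a ratio of 1.40 (limma adjusted p = 0.00204), and CENPK, of the kinetochore, 1.66 (limma adjusted p = 0.0319). SMC2, of condensin, had a ratio of 1.60 and missed the threshold (limma adjusted p = 0.0644).

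Genes of absorption, lipid and sugar metabolism had ratios nearer to those of autosomes. Of 24 genes 1 was higher in males, against 18.8% of all Z genes, and 0 lower, the median ratio was 0.967, and 13 ratios were below 1. FBP1, of gluconeogenesis, had 246, 384 and 471 TPM in females and 183, 380 and 641 TPM in males, a ratio of 1.06. The 95% interval of its log2 difference ran from -0.33 to 0.38 (limma adjusted p = 0.969), which does not hold a doubling. HSD17B4, of peroxisomal fatty acid oxidation, had a ratio of 1.49 (limma adjusted p = 0.606). The gene that was called was PLIN2, a coat protein of lipid droplets, with a ratio of 1.60 (limma adjusted p = 0.00155).

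Immune genes had a median ratio of 0.965, with 12 of 22 below 1, 1 higher in males against 18.8% of all Z genes, and 0 lower. GZMA, a granzyme of cytotoxic lymphocytes, had 76.9, 172 and 406 TPM in females and 66.9, 226 and 682 TPM in males, a ratio of 1.49 (limma adjusted p = 0.904). It overlaps ENSGALG00000013546 in the annotation. CAST, which encodes the calpain inhibitor calpastatin, had a ratio of 1.22, the interleukin receptor IL7R 1.18, the chemokine CCL19 1.37 and the chemokine CCL21 0.724, none called. ERAP1, which trims peptides for presentation by MHC class I, was the gene called, with 38.9, 57.7 and 88.3 TPM in females and 64.8, 97.3 and 161 TPM in males (ratio 1.63, limma adjusted p = 0.0274). That call was lost with the replicate number as a block and without HASI replicate 4 or 6, HASN 3 or 4, LASI 1, 2 or 3, or LASN 2 or 6, with adjusted p up to 0.0973.

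Of 7 genes of epithelium and junctions 0 were called by limma in either direction, against 18.8% of all Z genes higher in males, and the median ratio was 0.990. ITGA1, an integrin subunit, had a ratio of 1.12 and APC, a regulator of Wnt signalling, 1.19. Hormone and sex genes gave 0 calls of 4, with ratios of 1.19 for FST (follistatin), 0.883 for PRLR (the prolactin receptor), 0.837 for GHR (the growth hormone receptor) and 1.49 for HSD17B4.

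**Figure D4:**
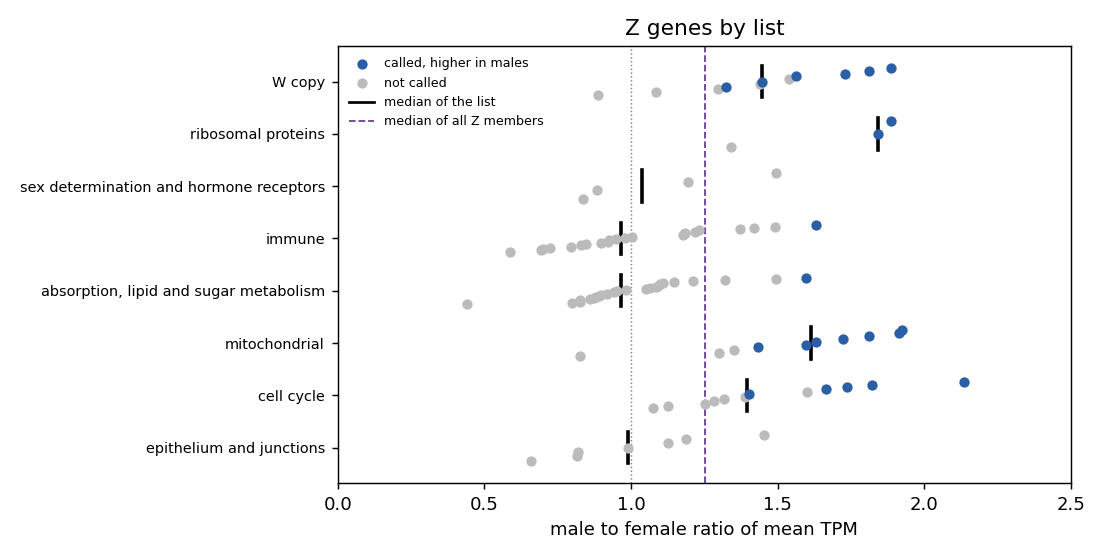
Male to female ratio of mean TPM (x axis) of each member of 8 gene lists (y axis), in blue where called higher in males and grey where not called, with black bars at list medians and a dashed line at the median of 1.25 over all Z members. Mitochondrial, ribosomal and cell cycle genes lie mostly to the right of that line, while the medians of the immune (0.965), absorption (0.967) and epithelium (0.990) lists lie below 1.

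A few Z genes were picked for the smallest estimated difference between the sexes. Their intervals differ in width, so a small estimate does not by itself show equal levels. FYB, an adaptor protein of T cells and other blood cells, had 3.55, 15.6 and 35.2 TPM in females and 7.37, 14.2 and 34.6 TPM in males, a ratio of 1.0 with a wide 95% interval of -0.57 to 0.57 on the log2 scale. KIF2A, a kinesin that depolymerises microtubules, had 44.5, 63.0 and 79.3 TPM in females and 38.4, 64.2 and 79.6 TPM in males. Its interval was -0.23 to 0.23, so a doubling lies outside it. MARVELD2, or tricellulin, of junctions where cells meet, had a ratio of 1.01 and an interval of -0.32 to 0.31. ENSGALG00000015352 and ENSGALG00000052213 had ratios of 0.976 and 1.07, and the interval of the latter held both a doubling and a halving. ENSGALG00000014857, named for its abundance, overlaps SELENOP1 and ENSGALG00000046720. It spread from 179 to 3223 TPM in females and from 175 to 3886 TPM in males, with an interval of -1.03 to 0.81.

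Some Z genes keep a copy on the W, so that females carry a pair of copies in total, as males do. The values here are those of the Z gene alone and leave out transcripts of the W copy. They therefore do not compare the total of both copies between the sexes. Of 11 such genes 6 were higher in males (18.8% over all Z genes) and 0 lower, with a median ratio of 1.45 against 1.25 over all Z genes. ATP5A1Z, the alpha subunit of ATP synthase, had 222, 427 and 525 TPM in females and 560, 774 and 869 TPM in males, with no overlap and a ratio of 1.81 (limma adjusted p = 0.000101). VCP, an ATPase of protein quality control, had 77.6, 130 and 166 TPM in females and 168, 190 and 256 TPM in males, a ratio of 1.56 (limma adjusted p = 0.000996). BTF3, of the nascent polypeptide-associated complex, had 216, 244 and 307 TPM in females and 290, 317 and 438 TPM in males, a ratio of 1.32 (limma adjusted p = 0.000118). NEDD4L, a ubiquitin ligase, had a ratio of 1.30 and SUB1, a transcription coactivator, 1.09, and neither was called. Where Z and W copies are similar, the authors' counting could have split reads between them, so these values are uncertain.

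The Z and W copies could be set side by side for SPIN1, which encodes spindlin. SPIN1Z was 32.8 ± 10.6 TPM in females (SD, n = 13) and 51.7 ± 17.7 TPM in males (SD, n = 11), and was not called (limma adjusted p = 0.145). SPIN1W was 9.10 ± 2.45 TPM in females, and the sum of both copies in females was 41.9 ± 12.8 TPM. The sum lay between the female and the male level of SPIN1Z, and the spreads overlapped. A pair picked after its values were seen showed another order. chPKCI on the Z had 60.9, 75.6 and 97.8 TPM in females and 102, 141 and 184 TPM in males (ratio 1.81, limma adjusted p = 3.27e-06). Its W relative Wpkci-7 had 185, 234 and 303 TPM in females, above chPKCI in either sex, and at most 2.06 TPM in males.

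The male to female ratio varied along the chromosome. In windows of 5 Mb the median was 1.12 to 1.53, except in the window from 25 to 30 Mb, where it was 0.952 over 31 genes and 18 ratios were below 1. The highest median, 1.53, was in the window from 80 to 85 Mb (19 genes). Within groups the median of the window from 25 to 30 Mb was 0.681 times that of the whole Z in HASN, 0.838 times in HASI, 0.791 times in LASN and 0.840 times in LASI. It was below the Z median in all 4 groups, and in HASI its own median was 1.44. The window was picked out after its values were seen. The groups hold the same birds, so the split by group only describes the result and is no separate test.

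**Figure D5:**
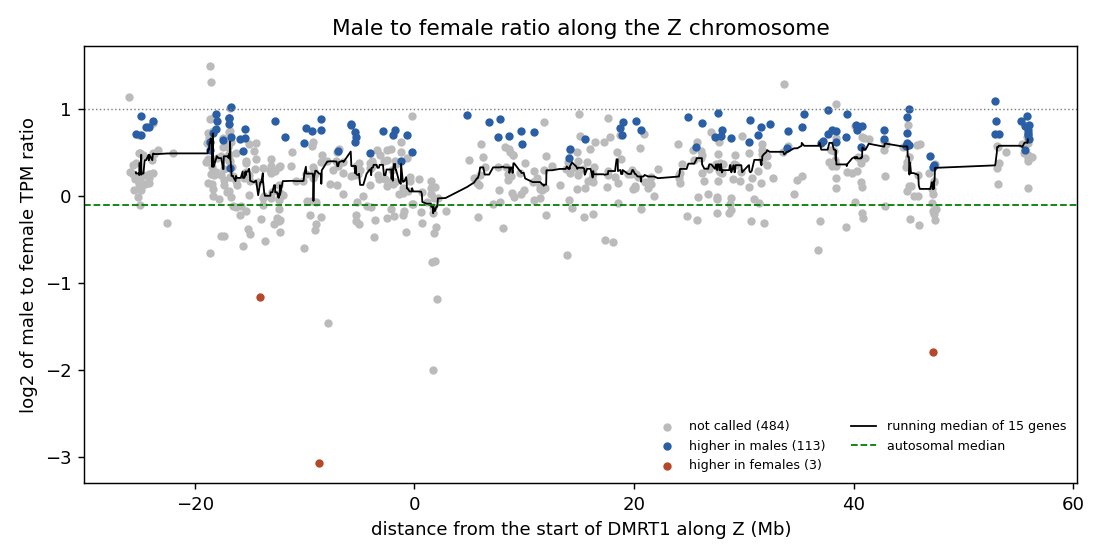
Log2 of the male to female TPM ratio (y axis) of 600 Z genes by distance in Mb from the start of DMRT1 (x axis), coloured by call, with a running median of 15 genes in black and the autosomal median dashed. Calls for higher levels in males (113) are spread over the chromosome, and the running median reaches its lowest values just beyond DMRT1.

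The window from 25 to 30 Mb holds DMRT1, at 25949442 to 26005324, which was itself at most 0.163 TPM and is no member. Within 2 Mb of its start lay 42 members with a median ratio of 1.03, 17 of them below 1. A ratio below 1 was found for 20% of all Z genes and 72.2% of autosomal genes. Of the 42 members 5 were higher in males, against 18.8% of all Z genes, and 0 lower. NSA2, a factor of ribosome assembly, had 164, 195 and 229 TPM in females and 277, 322 and 446 TPM in males, a ratio of 1.69 (limma adjusted p = 7.78e-08) without overlap. MED18, a Mediator subunit, had a ratio of 1.63 (limma adjusted p = 3.15e-05), PTCD2, of mitochondrial RNA processing, 1.63, CBWD1 1.42 and BTF3 1.32. All 5 lie before DMRT1 on the chromosome.

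Beyond DMRT1 came the longest stretch of neighbours with ratios below 1, which was picked out after its values were seen. From 27532087 to 27810305 all 7 consecutive members were below 1, with a median of 0.742. The next longest run of neighbours below 1 on the Z had 5 members, and 62 runs were single genes. In order the 7 genes were JAK2, RLN3, ENSGALG00000015032, ENSGALG00000031794, RIC1, ERMP1 and ENSGALG00000015045. After KIAA2026, with a ratio of 1.07, another 4 followed below 1, among them GLDC and KDM4C. After division by the autosomal median, RIC1 and KDM4C were each at 1.05, so neither stretch was unbroken on that scale. The other members of the 7 ranged from 0.267 (RLN3) to 0.984 (ENSGALG00000031794).

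None of these genes was called, and their spread was wide. GLDC, the decarboxylase of the glycine cleavage system, had 5.57, 18.1 and 44.5 TPM in females and 1.82, 6.66 and 37.0 TPM in males, a ratio of 0.441. Its log2 difference was -1.21 ± 0.336 (SE; unadjusted p = 0.00156, limma adjusted p = 0.111). The adjusted p was 0.0462 after rescaling, 0.0489 with the slope as a covariate and 0.0114 without HASN replicate 4, the male with the highest value, and 0.0114 to 0.247 over all refits. JAK2, a kinase of cytokine signalling, had 1.50, 5.94 and 29.3 TPM in females and 0.824, 4.43 and 28.7 TPM in males (ratio 0.588, limma adjusted p = 0.904). RLN3, a relaxin family peptide, had a ratio of 0.249 at a mean of 0.852 TPM, with 9 females and 2 males at or above 0.5 TPM (limma adjusted p = 0.504). It would have failed the filter without the females, so its ratio is not independent of the filter. ERMP1, a peptidase of the endoplasmic reticulum, had a ratio of 0.742.

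Over the 11 members from JAK2 to KDM4C the median log2 difference was -0.28, and it was -0.12 with the slope as a covariate. An unadjusted p under 0.05 was found for 3 of them, among them RLN3, which passed the filter only through the females. RIC1 went from -0.03 to 0.30 and KDM4C from -0.03 to 0.20 under that covariate, while GLDC was -1.04.

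The 3 Z genes called higher in females lay apart from each other. CDO1, cysteine dioxygenase, which opens the route from cysteine to taurine, had 28.4, 45.9 and 81.8 TPM in females and 5.96, 17.9 and 27.5 TPM in males. Every female was above every male. That held for 1 of 600 Z genes (0.167%), 2 of 12616 autosomal genes and 0.256% of all genes, W genes included. The ratio was 0.288 and the log2 difference -1.79 ± 0.183 (SE; limma adjusted p = 5.71e-07). The call held in all 34 refits with both lines and treatments, with adjusted p up to 3.91e-05, and in each of the 4 groups all females were above all males. Among these refits, those with other W thresholds or W genes gave the same sexes, so they repeat the main fit and could not lose a call.

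CDO1 lies at 73146956 to 73156876. Its neighbours did not share the difference: ATG12, an autophagy gene directly before it, was higher in males (ratio 1.26, limma adjusted p = 0.00612). AP3S1, before ATG12, had a ratio of 0.941 and TMED7, after CDO1, 0.889, neither called.

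ENSGALG00000049397, a gene with no symbol at 17279224 to 17280249, had 1.11, 3.60 and 18.3 TPM in females and 0 to 1.37 TPM in males, with a median of 0.652. The ratio was 0.119 and the log2 difference -1.70 ± 0.221 (SE; limma adjusted p = 2.35e-05), called in the same 34 refits but not in HAS birds alone. Across groups the sexes overlapped slightly, and within each of the 4 groups all females were above all males. It lies in the run of 5 neighbours below 1, with DDX4 (ratio 0.761), IL31RA (0.796), IL6ST (0.949) and MAP3K1 (0.846), none of which was called, and the next genes after MAP3K1, ENSGALG00000047687 and ENSGALG00000014719, were higher in males with ratios of 1.84 and 1.69.

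EGFLAM, which encodes the extracellular matrix protein pikachurin, was the third, with 0.471, 1.58 and 3.13 TPM in females and 0.372, 0.538 and 2.18 TPM in males. The sexes overlapped, the ratio was 0.448 and the adjusted p 0.0223. The call was lost without the group term and without HASN replicate 1 or LASN replicate 1, 4 or 5, with adjusted p up to 0.238. EGFLAM is followed by LIFR (ratio 0.829) and ENSGALG00000048563 (0.985), which were also below 1 and not called, and preceded by GDNF (1.11).

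The difference by sex was not found to depend on the line or the injection. In limma models with an interaction term 0 Z genes were called for sex by line, with 15 at an unadjusted p under 0.05, and 0 for sex by injection, with 4 (0% of all genes called in each). The smallest p by line belonged to ENSGALG00000053886 (unadjusted p = 0.00364, adjusted 0.973) and by injection to RAB3C (0.0174, adjusted 0.944). With 2 or 3 males in a group these tests find only large differences, and a p above the threshold does not show that the effects were alike.

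With sex in the model, few Z genes differed between the lines. In birds not injected 6 Z genes were called between HASN and LASN (1%, against 1.21% of all genes), and in injected birds 3 between HASI and LASI (0.5%, against 0.572%). CFC1, a coreceptor of Nodal signalling, was called in both. It had 2.28, 2.88 and 3.69 TPM in HASN and 7.96, 9.71 and 21.1 TPM in LASN (log2 difference -1.65 ± 0.188, SE; limma adjusted p = 1.22e-05). In injected birds it had 1.61, 2.54 and 3.59 TPM in HASI and 7.39, 12.7 and 16.8 TPM in LASI (-1.76 ± 0.190, SE; limma adjusted p = 6.06e-06). HAS and LAS birds did not overlap in either.

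NDUFAF2, an assembly factor of complex I, was higher in HAS in both comparisons (log2 differences 0.65 and 0.62, limma adjusted p = 0.00536 and 0.0138). Both calls were lost after rescaling and without the sex term. ENSGALG00000047424 had 0.237, 0.707 and 1.40 TPM in HASI and 2.99, 5.85 and 7.76 TPM in LASI, without overlap (limma adjusted p = 0.000234). ENSGALG00000013546, which overlaps GZMA, and GRHPR, of glyoxylate metabolism, were higher in HASN than in LASN (log2 differences 0.91 and 0.86). DDX4, a helicase of germ cells, was lower at 0.376 against 1.12 TPM (medians). The call for ENSGALG00000013546 was lost without the sex term. That for GRHPR was lost also after rescaling and without HASN replicate 1 or 3 or LASN 5 or 6 (adjusted p up to 0.219), and that for DDX4 without HASN replicate 1 or 2 or LASN 1, 5 or 6 (up to 0.0648). Without HASN replicate 1 or without LASN replicate 6, 3 Z genes were called between HASN and LASN.

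Injected birds were compared with birds not injected within each line. In HAS 5 Z genes were called between HASI and HASN (0.833%, against 1.78% of all genes). In LAS 196 were called between LASI and LASN (32.7%, against 30.8%), 22 higher and 174 lower in LASI. The Z share was thus near that of all genes. With the slope as a covariate the LAS count was 31 and the HAS count 56, so that the line with more calls was then HAS, as it was over all genes (1470 calls in HAS and 730 in LAS). After rescaling the LAS count was 219, with 88 higher and 131 lower, and the HAS count 5, with 4 higher and 1 lower in place of 2 and 3. Leaving out 1 library gave 23 to 291, with 23, 122, 44 and 50 without LASI replicate 2, 3, 4 or 5 and 47 and 29 without LASN replicate 5 or 6. The HAS count was 0 without HASI replicate 3, 3 without HASI replicate 1 or 6, 2 without HASN replicate 6 and 8 without LASI replicate 4. Rescaling moved the median log2 difference of all genes from -0.33 to 0.02 in LAS and from -0.27 to -0.02 in HAS.

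Of the 113 Z genes higher in males 6 were lower and 11 higher in LASI than in LASN. Of the 484 Z genes not called by sex 168 were lower and 10 higher. Over all 13279 genes 3797 were lower and 289 higher in LASI. Both comparisons come from the same 24 libraries, and short genes are overrepresented among the calls by sex, as given above.

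ONECUT2, a transcription factor, was lower after injection in both lines. It had 0.994, 3.74 and 5.82 TPM in HASN and 0.282, 0.759 and 1.12 TPM in HASI (log2 difference -1.25 ± 0.269, SE; limma adjusted p = 0.0173), with a slight overlap. In LAS it had 2.86, 4.41 and 7.22 TPM in LASN and 0.0954, 0.548 and 1.79 TPM in LASI (-1.77 ± 0.267, SE; limma adjusted p = 0.000786), without overlap. SREK1IP1, whose name marks a partner of the splicing regulator SREK1, was higher after injection in both, by 1.11 on the log2 scale (limma adjusted p = 0.0154 in HAS and 0.00786 in LAS).

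Between HASI and HASN GKAP1 was also called higher, and CARTPT, a neuropeptide precursor, and LVRN, an aminopeptidase, lower. CARTPT had a median of 1.07 TPM in HASN and 0 TPM in HASI, where its highest value was 0.482 TPM. It would have failed the filter without the HASN birds, so its call is not independent of the filter. LVRN had medians of 1.47 TPM in HASN and 0.398 TPM in HASI. All 5 HAS calls were lost without HASI replicate 3, with adjusted p up to 0.171 over the refits. Those for ONECUT2, GKAP1 and CARTPT were lost also without HASN replicate 6, and those for GKAP1, CARTPT and LVRN after rescaling. GKAP1 and SREK1IP1 were lost without the sex term. GKAP1 was lost also without HASI replicate 1, CARTPT without HASI 4 or 6 or HASN 3 or 4, and LVRN without HASI 1 or 6 or HASN 5. In LAS the other named genes were lower in LASI. CCBE1, needed for lymphatic vessel growth, went from a median of 4.55 to 0.515 TPM, ENSGALG00000026928 from 51.6 to 15.5 TPM and PLIN2 from 72.3 to 44.7 TPM. The call for PLIN2 was lost after rescaling (adjusted p = 0.0642).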

How the data were processed

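The deposited table holds TPM for 15618 genes in 24 libraries of chicken jejunum. Its columns sum to 999998 on average, as they would after scaling over the genes listed. Totals of single columns are not given here. The build is galGal6, per the submitters' processing notes, and the aligner, counter and annotation are not given in the sources used here. Read depth is unknown. Coordinates and symbols are those of the table.

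From these TPM the sex of each bird, ratios of means and limma fits (limma 3.58.1, R 4.3.3, trend and robust, 19 residual degrees of freedom, all 24 libraries) were computed. Correlations between libraries were 0.797 to 0.988 over 276 pairs, 0 of them identical. Named genes were, with a mean of at least 1 TPM, the 8 called genes with symbols and 2 without at each end, the 4 most abundant, the 5 with the smallest difference at a mean of at least 10 TPM, 3 per list (6 of the W copies), called genes near DMRT1, and up to 5 per group comparison. Members and lists were chosen with earlier results of these data known. Some genes that the rule names are not reported here. The fit was tested on simulated data before use.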

Additional observations from a re-analysis of the deposited data

Results flagged for a closer look

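Within groups of 6 birds, 109 sets of values of the named genes were tested for a single bird far from the others, by the gap to its neighbour over the range, and 3 were flagged. Chance flags about 1 in 20 such sets. ONECUT2 was 1.79 TPM in LASI replicate 4, with the other birds of the group at 0.0954 to 0.689 TPM. CARTPT was 0.846 TPM in the same bird, against 0 to 0.192 TPM. CCBE1 was 2.95 TPM in LASI replicate 6, against 0.258 to 0.687 TPM. No explanation was tested.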

How the results depend on the processing

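The count of Z genes called by sex, 116, was 187 after median-ratio rescaling (183 higher in males, 107 of the 116 kept) and 280 with each library's span slope as a covariate (276 higher in males, all 116 kept). With fewer birds it was 13 in HAS alone, 54 in LAS alone, 51 in injected birds and 23 in birds not injected. It was 103 to 127 on leaving out 1 library, 104 with a log2 difference of at least 0.5 as a further condition, and 107 to 117 with the other filters, pseudocount, sex thresholds and models. Counts by sex over all genes under these settings are not given here, so changes of the Z count are not shown to be particular to the Z. The median ratio was 1.15 to 1.32 on leaving out 1 library, 1.31 in HAS, 1.20 in LAS, 1.44 in injected birds, 1.17 in birds not injected and 1.34 after rescaling. Relative to autosomes it was 1.33 to 1.42 in these subsets and after rescaling. The call counts by group were 3 to 8 (HASN vs LASN), 3 to 4 (HASI vs LASI), 0 to 8 (HASI vs HASN) and 23 to 291 (LASI vs LASN) on leaving out 1 library. Without the sex term HASN vs LASN and HASI vs HASN gave 3 each. With the slope they gave 12 and 56, HASI vs LASI 11 and LASI vs LASN 31. The causes were not tested.

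Replicate numbers are shared between groups. The median correlation of deviations was near that of other pairs for same-numbered birds (r = 0.0230 over 36 pairs, against -0.0107). Single same-numbered pairs ranged widely, from -0.568 to 0.791. Whether the numbers pair the birds was not tested further. With the number as a block 107 Z genes were called by sex, and 9, 3, 9 and 266 in the 4 group comparisons. Of 29 named calls by sex 25 held in every refit with all groups, of 18 between groups 7 did, and 0 changed direction. Depth cannot be assessed without counts.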
